A study of Mus musculus with 6 samples.

Results

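Histone genes were followed in ribosomal-RNA-depleted RNA of cultured mouse colonic fibroblasts, the connective tissue cells of the gut wall. The members were every gene symbol of the deposited table that follows a histone naming pattern for H1, H2A, H2B, H3 or H4, with pseudogene names dropped. The pattern matched 79 symbols, 2 of them pseudogenes, and left 77 of the 38896 genes listed. Of these, 64 carry the names of replication-dependent histones (5 H1, 17 H2A, 18 H2B, 12 H3 and 12 H4 genes) and 13 carry the names of variant histones (6 H1, 3 H2A and 4 H3 genes). On GRCm38, 53 of the 64 replication-dependent genes lie on chromosome 13, 10 on chromosome 3 and 1 (H2bu2) on chromosome 11.

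The series holds 6 libraries from 3 mice, numbered 1716, 1717 and 1718. The fibroblasts came from the distal colon at the age of 6 weeks and were grown for 2 passages. From each mouse 1 culture was kept for 24 h in inflammatory conditioned medium (labelled DSS) and 1 culture in control conditioned medium (labelled control). The labels give no strain or sex, and DSS and control stand under their genotype tag, although the study's design text describes media. Both groups come from the same 3 animals, so libraries pair by mouse. Tests on the groups alone ignore this pairing, and their p-values measure the spread between cultures within a group. Only fits with the mouse as a block, which also model the mouse, measure the spread between the 3 pairs of cultures.

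Replication-dependent histone genes supply the bulk of the histones that package newly copied DNA. Their transcripts are made mostly in S phase and end in a conserved stem-loop in place of a poly(A) tail. The stem-loop is bound by Slbp, the stem-loop binding protein, and the U7 RNA guides the cut that forms the end. Variant histones are made through the whole cell cycle from ordinary polyadenylated transcripts and replace the replication-dependent proteins at particular sites. Because the libraries were made by depleting ribosomal RNA from total RNA and not by poly(A) selection, both kinds of transcript could be counted together.

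The 3′ end element that sets these transcripts apart was read from the GENCODE transcripts on GRCm38, 5′ to 3′, with the 16 bases of the stem-loop in capitals. It was found in 43 of the 64 replication-dependent genes, which are 43 of the 48 whose transcript model runs at least 40 bases past the stop codon. It was found in 0.105% of all 58797 protein-coding transcripts and in 2 of the 11 variant genes with a model, H2ax and H1f6. It lay 21 to 58 bases past the stop codon in the replication-dependent genes, with a median of 31. The sequences shown belong to the gene with the lowest fold change (H3c2), to the only one that rose when mice were paired (H3c6), to its close relative H3c7, to an H2B and an H4 gene for comparison, and to the variant H2ax.
H3c2 chr13:23752815-23752840 plus strand: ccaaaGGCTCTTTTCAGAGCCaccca
H3c6 chr13:23561898-23561923 minus strand: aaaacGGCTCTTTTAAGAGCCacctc
H3c7 chr13:23544927-23544952 plus strand: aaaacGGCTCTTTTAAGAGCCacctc
H2bc12 chr13:22036295-22036320 plus strand: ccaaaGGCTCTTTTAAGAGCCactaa
H4c2 chr13:23757361-23757386 plus strand: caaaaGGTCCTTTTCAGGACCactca
H2ax chr9:44335235-44335260 plus strand: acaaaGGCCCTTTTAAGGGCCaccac
The 16 letters of H3c2 were shared by 25 replication-dependent genes of the H1, H2A, H2B and H3 classes, and those of H3c6 by 5 genes of the H2B and H3 classes. The 11 matching H4 genes used 4 other versions, the most frequent of them in 6 genes. The whole printed stretch was the same in H3c6 and H3c7.

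Depth was 17293680 to 19482938 estimated counts per library, and 19869 genes passed the filter on low counts. The 9 fibroblast markers summed to 20128 to 24719 CPM (counts relative to library size, as scaled by edgeR's TMM method) in DSS and 37349 to 44062 CPM in control. On the groups alone 5 of them fell, among them the collagen genes Col1a1, Col1a2 and Col3a1, and 1 rose (Pdgfra). With the mouse as a block 6 fell and 2 rose (Pdgfra and Dcn). For this and the next marker lists, 5.91% of all genes fell and 7.37% rose on the groups alone. With the block 12.7% of all genes fell and 12.3% rose. The 8 epithelial markers, of which 2 were tested and 1 fell in both fits, together reached 2.15 to 3.48 CPM in DSS and 3.71 to 5.12 CPM in control, with Epcam at most 0.114 CPM and Cdx2 at 0. The 8 macrophage and leukocyte markers, of which 6 were tested and 1 rose and 2 fell on the groups alone and 1 rose and 3 fell with the block, summed to 941 to 1446 CPM in DSS and 1474 to 2180 CPM in control, with Lyz2, the macrophage lysozyme, as the highest and the T cell marker Cd3e at or below 0.0571 CPM. The 5 endothelial markers, none of them called on the groups alone and 2 lower with the block, summed to 6.77 to 10.7 CPM in DSS and 10.8 to 18.04 CPM in control. The 4 mesothelial markers, 2 of them tested and none called in either fit, summed to 2.38 to 4.11 CPM in DSS and 1.82 to 4.22 CPM in control. The part of these cells in the histone results was not tested.

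Summed over its 64 genes, the replication-dependent class reached 1523, 919.8 and 814 CPM in the DSS libraries of mice 1716, 1717 and 1718, against 1672, 1294 and 1054 CPM in the control libraries of the same mice. Sets of 3 values are given in this order of mice from here on. The DSS culture was lower than the control culture in each mouse, but the groups overlapped, since the DSS library of mouse 1716 exceeded the control libraries of mice 1717 and 1718. The difference, DSS minus control, was -0.14, -0.49 and -0.37 on the log2 scale, with a mean of -0.33 ± 0.18 (SD, n = 3 mice). In bulk RNA such as this, fewer cycling cells and less histone RNA per cell cannot be told apart.

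The variant class summed to 535, 482 and 501 CPM in DSS, against 651, 581 and 578 CPM in control. All 3 DSS libraries lay below all 3 control libraries, and the log2 differences were close to each other, with a mean of -0.25 ± 0.04 (SD, n = 3 mice). The ratio of the replication-dependent to the variant sum was 2.84, 1.91 and 1.62 in DSS, against 2.57, 2.23 and 1.82 in control. The ratio was higher in DSS in mouse 1716 and lower in DSS in mice 1717 and 1718. Its mean log2 difference of -0.08 ± 0.20 (SD, n = 3 mice) was smaller than the spread between mice, so these libraries gave no common direction for the balance of the 2 classes.

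**Figure D1:**
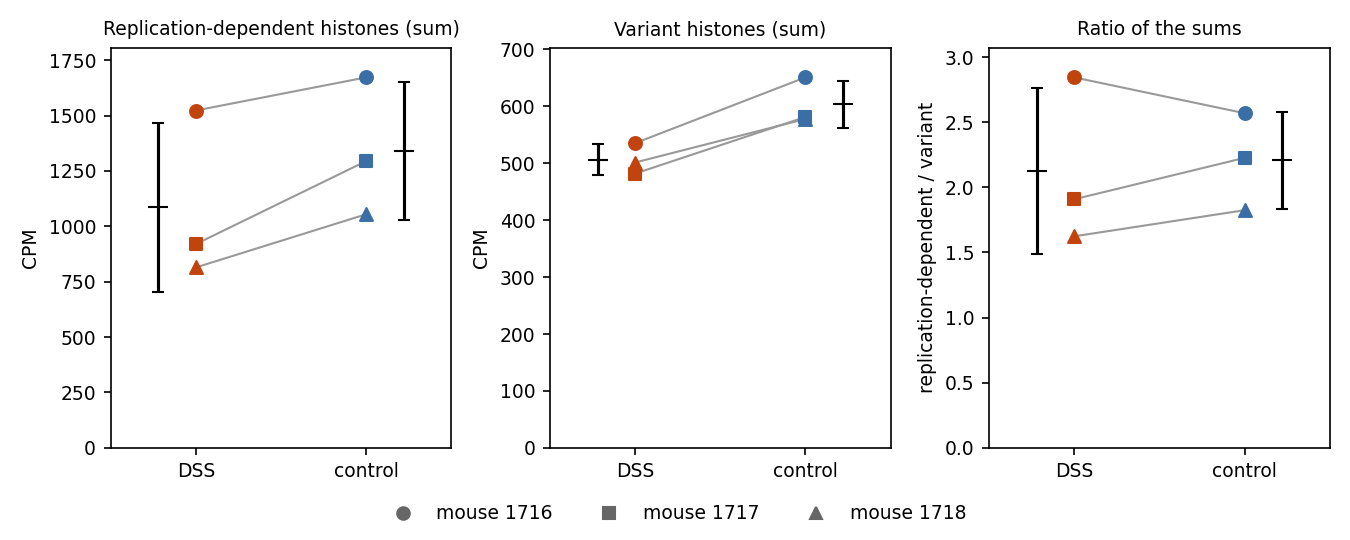
Summed CPM of 64 replication-dependent and 13 variant histone genes, and the ratio of the sums, in DSS and control libraries; symbols are mice, grey lines join the cultures of a mouse, and black bars are the mean ± SD over 3 mice. Both sums were lower in DSS in each mouse, while the ratio was higher in DSS in mouse 1716 and lower in the other two.

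Of the 77 members, 67 had enough counts to be tested, 60 replication-dependent and 7 variant. The other 10 had at most 27 estimated counts over the 6 libraries. H2ac1 and H4c17 had none at all, and the untested variants included H1f6, H1f7, H1f8 and H1f9, the linker histones of germ cells. Between replication-dependent genes with a single transcript, the mean level was divided by the length of the RefSeq gene on the genome. It ranged over 1.17 to 149 CPM per kilobase with a median of 26.5 (55 genes). The highest were H1f2 at 149 and H4c18 at 148 CPM per kilobase and the lowest was H2bc21 at 1.17, whose gene spans 2667 bases.

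None of the 60 tested replication-dependent genes changed by edgeR's quasi-likelihood test on the groups alone, with adjusted p between 0.0531 for H2bc4 and 0.983, where 13.3% of all genes were called, 7.37% higher and 5.91% lower. Unadjusted p was under 0.05 for 10 of the 60, where it was for 28.5% of all genes. With the mouse as a block, 35 fell and 1 rose, where 12.7% of all genes fell and 12.3% rose, 25.0% in all. In simulated counts that kept the fitted mouse effects, the blocked fit made more false calls than its threshold allows. The log2 fold changes of the 35 ranged over -1.04 to -0.28, and their adjusted p over 0.000793 to 0.0485. DESeq2 without the block called 4 of the 60 lower, where 6.53% of all genes were, and with the block it called 26 lower and 1 higher, where 7.90% of all genes were called lower.

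The median log2 fold change of the 60 was -0.42, or -0.45 with the block, against 0.01 for all genes, and 54 of the 60 were negative. DSS lay below control in every mouse for 45 of the 60, against 28.5% of all genes, and above control in every mouse for 1, against 28.4%. Separation of the groups was another matter. Every DSS library lay below every control library for 3 of the 60 (H2ac21, H2ac22 and H2bc4), against 16.5% of all genes, and above every control library for 0 of the 60, against 17.7%.

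Mouse 1716 stood above the other mice across the class. Among the 60 tested genes its library was the highest of the DSS libraries for 60 and the highest of the control libraries for 56, and it was highest in both media for 56, compared with 17.7% of all genes tested. Its DSS library exceeded the control library of mouse 1718 for 56 of the 60.

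Leaving out mice changed the counts. On the groups alone, 24 of the 60 fell without the DSS library of mouse 1716, where 5.48% of all genes fell, and 19 fell without both libraries of that mouse, where 4.45% did. With the block, 42 fell without mouse 1716, where 11.9% of all genes fell. In that fit 23 fell without mouse 1717, where 9.08% of all genes did, and 16 without mouse 1718, where 7.08% did. All 16 were among the 35 that fell with the 3 mice.

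**Figure D2:**
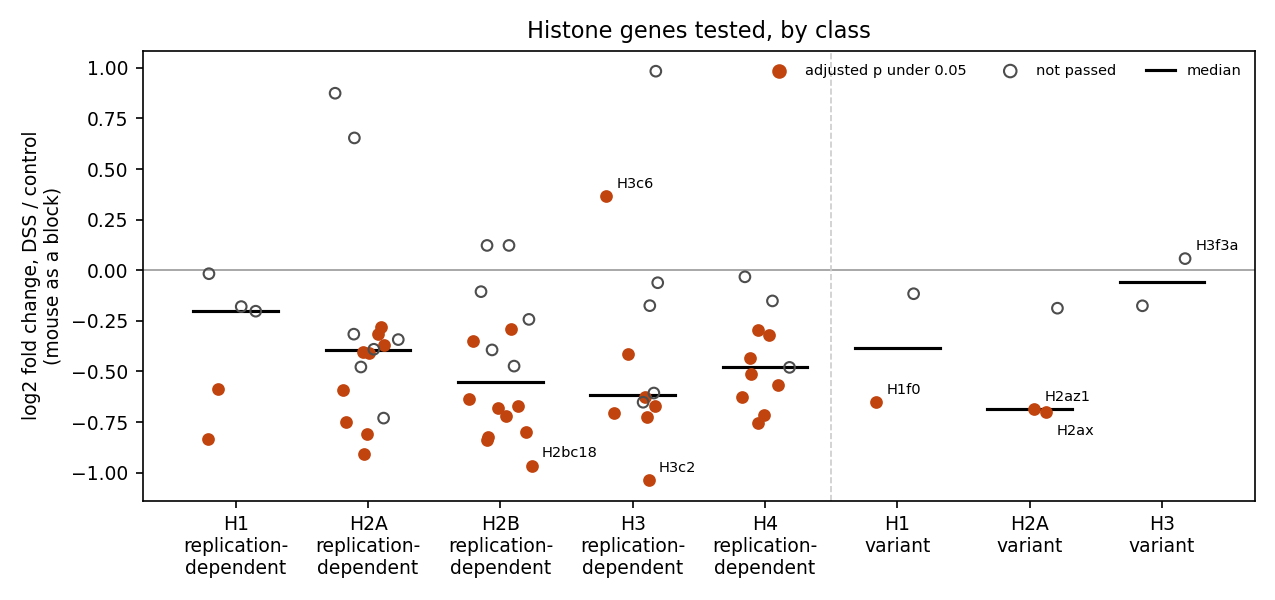
Log2 fold change, DSS over control, of the 67 tested histone genes with the mouse as a block, by histone class; filled points passed an adjusted p of 0.05, open points did not, and bars are class medians. Every replication-dependent class has its median below 0, H3c6 is the filled point above 0, and the 2 H3 variants lie close to 0.

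Among the H3 genes, which encode a core histone of the nucleosome, 6 of 12 fell and 1 rose with the block. Of all genes 12.7% fell and 12.3% rose in that fit. The median log2 fold change was -0.53, or -0.62 with the block. H3c2 had 24.9, 12.0 and 10.4 CPM in DSS, against 41.4, 29.3 and 23.2 CPM in control. The DSS cultures were lower in each mouse, and only the DSS culture of mouse 1716 reached into the control range. H3c2 had a log2 fold change of -0.99 ± 0.35 (SE, adjusted p = 0.108) by edgeR on the groups alone and -1.04 ± 0.11 (SE, adjusted p = 0.000793) with the block. H3c15 had 35.8, 16.8 and 14.97 CPM in DSS, against 43.0, 33.3 and 26.6 CPM in control, and fell with the block (log2 fold change -0.67, edgeR adjusted p = 0.0105). Neither H3c15 nor H3c14, on the same chromosome, has a stretch of 31 coding bases found in no other member, and the estimates of H3c14 ran between 0 and 3.395 CPM. The pair summed to 37.7, 18.7 and 16.9 CPM in DSS, against 46.4, 33.3 and 26.6 CPM in control, again lower in DSS in each mouse.

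H3c6 went the other way. It had 67.8, 45.6 and 39.5 CPM in DSS, against 45.6, 41.2 and 30.7 CPM in control, and was the replication-dependent H3 gene with the highest mean level. DSS was higher in each mouse, although the groups overlapped. The log2 fold change was 0.38 ± 0.22 (SE, adjusted p = 0.308) by edgeR on the groups alone and 0.37 ± 0.09 (SE, adjusted p = 0.0201) with the block. Without mouse 1718 the blocked log2 fold change was 0.35 and no longer passed (adjusted p = 0.0946), and without mouse 1716 it was 0.25 (adjusted p = 0.0497). H3c7, with the same stem-loop stretch, fell with the block (log2 fold change -0.42, edgeR adjusted p = 0.0229), as did H3c3, H2bc3 and H2bc12, which carry the same 16 letters. H3c3 had 40.7, 14.8 and 12.9 CPM in DSS, against 46.1, 30.6 and 21.9 CPM in control.

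A trait of the RefSeq gene ends differed between H3c6 and most of the class. The GENCODE transcripts did not set H3c6 apart. There 369 bases followed the stem-loop in H3c6, 365 in H3c7 and 770 in H4c4, and the latter genes fell with the block. In RefSeq, 40 of the 43 replication-dependent genes with a stem-loop end 4 to 8 bases past it, and 38 of these were tested. Under the block 25 fell and none rose, where 12.7% of all genes fell and 12.3% rose. Their median log2 fold change was -0.48. The RefSeq genes H3c6, H2bc6 and H2bc22 end farther off, by 428 bases in H3c6 and by 1861 and 13623 bases in H2bc6 and H2bc22. These are distances on the genome to the end of the gene over all its transcripts, any introns included. H2bc6 and H2bc22 had blocked log2 fold changes of -0.11 and -0.39 and passed no test. The variant H2ax, whose RefSeq gene ends 822 bases past its stem-loop, fell with the block. This trait was looked up after the values of H3c6 were seen, and 3 genes allow no test.

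The start regions of genes on either side of 0 are shown from RefSeq's GRCm38.p6 table, 250 bases before and 50 after the start, with matches on either strand in capitals. The searched letters were CCAAT, those of a box bound by factor NF-Y, then TATAAA of the TATA box, and the octamer ATTTGCAT, known from H2B promoters. H3c2 and H3c6 are the H3 genes with the lowest and the only significant positive change, and H2bc18 is the H2B gene with the lowest.
H3c2 chr13:23752095-23752394 plus strand: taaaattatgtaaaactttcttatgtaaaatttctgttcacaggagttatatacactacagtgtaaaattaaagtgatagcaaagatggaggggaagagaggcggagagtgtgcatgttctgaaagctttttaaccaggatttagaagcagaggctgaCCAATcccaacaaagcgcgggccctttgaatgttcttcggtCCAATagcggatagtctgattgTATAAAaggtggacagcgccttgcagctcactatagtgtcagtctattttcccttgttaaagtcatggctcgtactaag
H3c6 chr13:23562336-23562635 minus strand: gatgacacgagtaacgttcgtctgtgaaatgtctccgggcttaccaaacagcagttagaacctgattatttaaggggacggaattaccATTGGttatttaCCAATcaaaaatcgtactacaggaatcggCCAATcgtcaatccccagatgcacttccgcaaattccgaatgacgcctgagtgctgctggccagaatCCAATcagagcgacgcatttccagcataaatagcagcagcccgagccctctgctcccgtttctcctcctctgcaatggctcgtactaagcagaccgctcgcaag
H2bc18 chr3:96269450-96269749 plus strand: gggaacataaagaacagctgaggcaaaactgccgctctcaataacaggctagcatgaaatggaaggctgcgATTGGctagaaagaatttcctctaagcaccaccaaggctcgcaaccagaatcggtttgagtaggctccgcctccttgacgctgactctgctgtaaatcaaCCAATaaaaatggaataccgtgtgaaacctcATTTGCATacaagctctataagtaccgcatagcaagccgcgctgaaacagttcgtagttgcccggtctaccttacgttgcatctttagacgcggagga
CCAAT stood in 51 of the 59 replication-dependent start regions in the table (86.4%) and in 37.9% of all 27025. It stood in every H1, H2A, H2B and H3 region listed but in 3 of 11 H4 regions. TATAAA stood in 59.3% of the replication-dependent regions and in 14.2% of all. The octamer stood in 12 of the 59 (6 H2A and 6 H2B genes), which is 20.3% against 1.75% of all. H3c6 had 4 CCAAT matches and no TATAAA, and H3c2 had 2 CCAAT matches and 1 TATAAA. Of the 12 variant regions listed, 8 held CCAAT and 2 held TATAAA. A match is a description of letters in the window and no measured binding.

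The H4 genes, whose copies encode one and the same core histone, had negative log2 fold changes in all 11 tested members, with a median of -0.47. With the block 8 of the 11 fell, where 12.7% of all genes did. H4c4 had 53.1, 38.9 and 34.4 CPM in DSS, against 60.0, 49.5 and 44.3 CPM in control, and a log2 fold change of -0.28 ± 0.18 (SE, adjusted p = 0.343) by edgeR, or -0.29 ± 0.06 (SE, adjusted p = 0.0147) with the block. H4c2 was the lowest of the class at -0.76 with the block (adjusted p = 0.00144), and had 14.3, 10.3 and 9.62 CPM in DSS, against 24.3, 19.6 and 14.1 CPM in control. Only the DSS library of mouse 1716 lay above a control library of H4c2. H4c18 and H4c8, among the most abundant of the class, had log2 fold changes of -0.15 and -0.03 with the block and were not called. H4c18 and H4c17, which was listed at 0 in all libraries, both lack a coding stretch of 31 bases of their own, so their reads cannot be told apart by it.

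H2A genes fell with the block in 9 of 16 tested cases, where 12.7% of all genes did, with a median log2 fold change of -0.39. H2ac4 had 28.6, 12.3 and 11.8 CPM in DSS, against 36.6, 27.2 and 21.04 CPM in control, and a blocked log2 fold change of -0.75 ± 0.14 (SE, edgeR adjusted p = 0.00789). H2ac11, which has no coding stretch of 31 bases of its own, was the lowest at -0.91 with the block (adjusted p = 0.00118). H2ac18, the most abundant H2A gene, fell with the block at -0.31 (adjusted p = 0.0416). Neither H2ac18 nor H2ac19 has a coding stretch of 31 bases of its own. Summed over the pair, the level was 84.9, 50.8 and 49.1 CPM in DSS, against 87.2, 73.8 and 59.7 CPM in control. H2ac23, on chromosome 13, had 42.2, 20.9 and 19.3 CPM in DSS, against 45.8, 27.6 and 24.7 CPM in control. Its near copy H2ac24 was listed between 0 and 5.82 CPM with no order by group. H2ac23 and H2ac24 also lack a coding stretch of 31 bases of their own. Summed over H2ac22, H2ac23 and H2ac24, the level was 52.1, 23.8 and 25.3 CPM in DSS, against 51.7, 35.5 and 31.2 CPM in control. This sum was lower in DSS in mice 1717 and 1718 and not in mouse 1716.

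In the H2B class 10 of 16 tested genes fell with the block, where 12.7% of all genes did, and the median log2 fold change was -0.53. H2bc18 had 16.9, 7.27 and 7.40 CPM in DSS, against 25.9, 18.7 and 14.96 CPM in control. DSS was lower in each mouse, and the DSS library of mouse 1716 lay above the control library of mouse 1718. Its log2 fold change was -0.92 ± 0.35 (SE, adjusted p = 0.135) by edgeR and -0.97 ± 0.14 (SE, adjusted p = 0.00264) with the block. H2bc4 had 40.3, 36.0 and 31.7 CPM in DSS, against 47.0, 45.6 and 44.5 CPM in control, so that the groups did not overlap. At -0.34 ± 0.09 (SE) its edgeR adjusted p of 0.0531 was the lowest of the class on the groups alone. It was 0.0102 with the block, and 0.0755 with the block but without mouse 1718.

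H2bc23 and H2bc24, a pair of genes on chromosome 13 with no coding stretch of 31 bases of their own, had identical estimates in all libraries. Together they had 75.8, 51.8 and 51.4 CPM in DSS, against 68.1, 52.7 and 43.6 CPM in control. The pair was higher in DSS in mice 1716 and 1718 and not in mouse 1717. Its members had a log2 fold change of 0.12 each and were not called in either fit (edgeR adjusted p = 0.75, and 0.277 with the block).

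H1 genes encode the linker histones that bind DNA between nucleosomes. With the block 2 of the 5 fell, where 12.7% of all genes did, and the median log2 fold change was -0.19. H1f2, the most abundant replication-dependent gene, had 130, 109 and 83.3 CPM in DSS, against 123, 113 and 88.3 CPM in control, and a log2 fold change of -0.01 ± 0.18 (SE, edgeR adjusted p = 0.983). H1f4 and H1f3 had blocked log2 fold changes of -0.18 and -0.20 and did not pass (adjusted p = 0.0722 and 0.0642). The 2 that fell with the block were H1f1 (log2 fold change -0.83, edgeR adjusted p = 0.00428) and H1f5 (log2 fold change -0.59, edgeR adjusted p = 0.0171). H1f1 had 11.3, 6.07 and 4.89 CPM in DSS, against 16.1, 12.0 and 10.6 CPM in control.

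How well reads tell the copies apart differed by class. Cut into stretches of 31 bases, a replication-dependent coding sequence had a median of 13.8% of stretches found in no other member, with 0 in 13 genes. In the H1 class that median was 71.3%, and the variants had a median of 100% and a lowest value of 70.2%, in H2ax. Values of most single H2A, H2B, H3 and H4 genes therefore rest in part on how the estimated counts were divided among copies. Some were more distinct, such as H2bc18 at 92.0%, H4c14 at 87.6%, H2bc21 at 85.8% and H2ac21 at 66.7%. Sequence outside the coding part was not compared. The class sums do not depend on the division within a class. The log2 difference of the sums, DSS minus control, was -0.17 ± 0.09 for H1, -0.42 ± 0.23 for H2A, -0.38 ± 0.16 for H2B, -0.38 ± 0.27 for H3 and -0.34 ± 0.19 for H4 (SD, n = 3 mice each). Each class sum was lower in DSS in each mouse. The intervals of the mean ± SD overlapped among the 5 classes, but they leave out that the classes share the same mice. Within each mouse the H1 sum fell least, with log2 differences of -0.06, -0.22 and -0.22. The next smallest falls were -0.09 (H3), -0.51 (H4) and -0.37 (H4). The difference between classes was not tested. By place, the sum was -0.31 ± 0.17 for the 53 genes on chromosome 13 and -0.49 ± 0.30 for the 10 on chromosome 3.

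**Figure D3:**
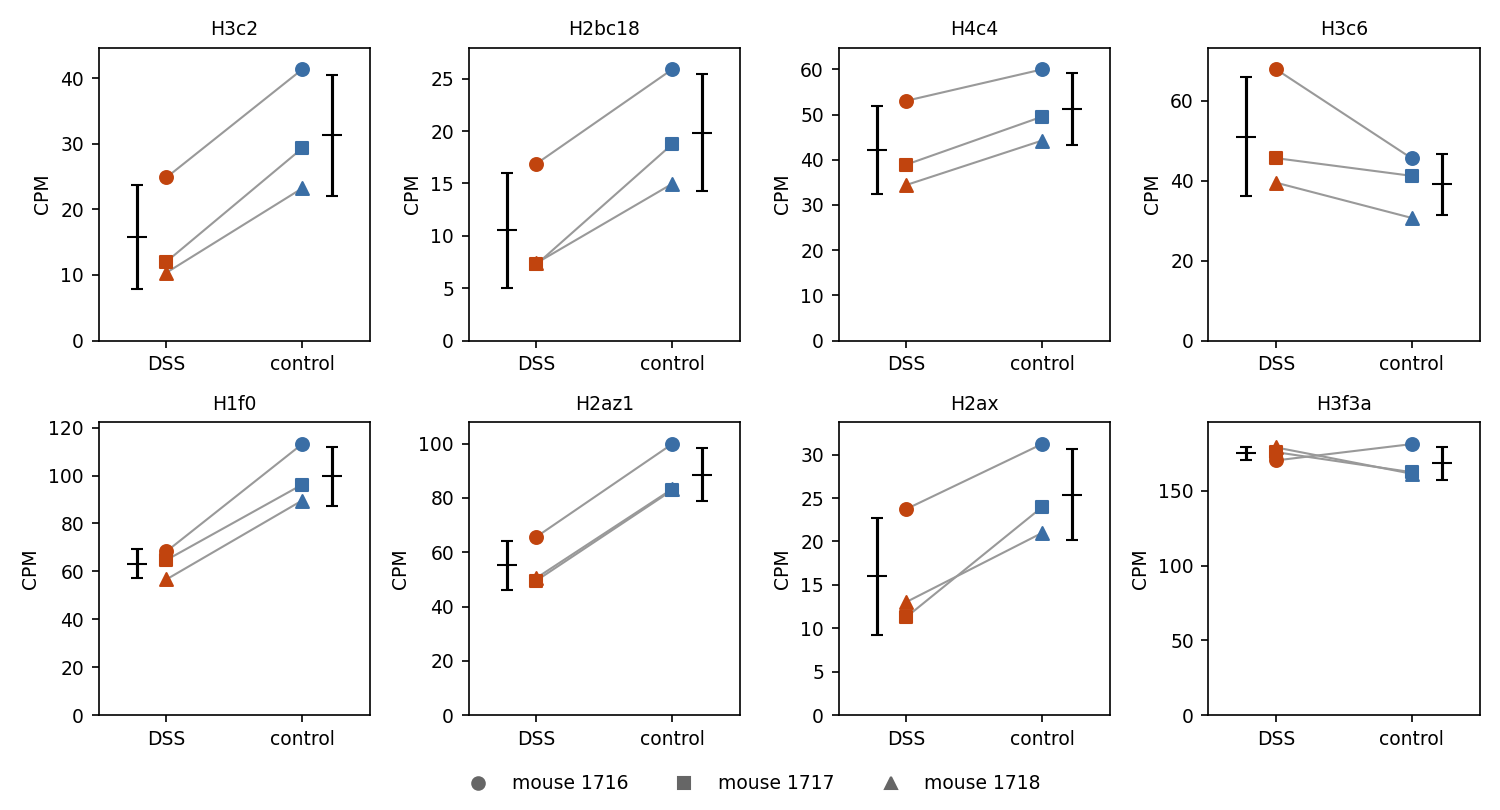
CPM of 4 replication-dependent genes (top) and 4 variant genes (bottom) in DSS and control libraries; symbols are mice, grey lines join the cultures of a mouse, and black bars are the mean ± SD over 3 mice. H3c2, H2bc18 and H4c4 were lower in DSS in each mouse with overlapping groups, H3c6 was higher, H1f0 and H2az1 were lower with no overlap, and H3f3a differed little.

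Among the variants 2 of 7 tested genes fell on the groups alone and 3 of 7 with the block, where 5.91% and 12.7% of all genes fell. H1f0, the linker histone known from cells that have stopped dividing, had 68.4, 64.8 and 56.7 CPM in DSS, against 113, 96.2 and 89.6 CPM in control. The groups did not overlap, and its log2 fold change was -0.66 ± 0.11 (SE) with an edgeR adjusted p of 0.00914, or 0.000376 with the block. Without both libraries of mouse 1717 its adjusted p on the groups alone was 0.0955. H2az1, which encodes the H2A.Z placed beside transcription start sites, had 65.7, 49.6 and 50.5 CPM in DSS, against 99.8, 82.8 and 83.2 CPM in control. It too had no overlap, with a log2 fold change of -0.68 ± 0.13 (SE) and an edgeR adjusted p of 0.0144, or 0.000303 with the block. Without mouse 1717 or mouse 1718 that p on the groups alone was 0.119 or 0.0963.

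H2ax, the H2A that is phosphorylated at DNA breaks, is the tested variant with a stem-loop. It had 23.7, 11.3 and 13.03 CPM in DSS, against 31.2, 23.9 and 20.98 CPM in control, with the highest DSS library, that of mouse 1716, inside the control range. Its log2 fold change of -0.66 ± 0.28 (SE) was not called on the groups alone (edgeR adjusted p = 0.172) and was called with the block (adjusted p = 0.00668). The other variants were not called in either fit. H3f3a had 170.4, 176 and 179 CPM in DSS, against 181, 163 and 161 CPM in control, and a log2 fold change of 0.06 ± 0.07 (SE, edgeR adjusted p = 0.662). H3f3b, which encodes the same H3 protein, had 177, 154 and 177 CPM in DSS, against 189, 186 and 197 CPM in control, and a log2 fold change of -0.17 ± 0.08 (SE, edgeR adjusted p = 0.19).

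H2az2 and H1f10 had log2 fold changes of -0.20 and -0.11. H3f3a and H3f3b made up most of the variant sum, and the sums by class were -0.06 ± 0.04 for variant H3, -0.61 ± 0.08 for variant H2A and -0.58 ± 0.06 for variant H1 as log2 differences (SD, n = 3 mice each). The gap between the H3 sum and the other variant sums was larger than these spreads. Cenpa, the centromeric H3 whose symbol lies outside the naming pattern, had 22.9, 14.8 and 12.9 CPM in DSS, against 35.4, 34.1 and 25.8 CPM in control, and fell on the groups alone (log2 fold change -0.91 ± 0.22, SE, edgeR adjusted p = 0.0348). The block gave Cenpa an adjusted p of 0.0012, while on the groups alone its call was lost without mouse 1717 (adjusted p = 0.264), without mouse 1718 (adjusted p = 0.0873) and without several single libraries (adjusted p up to 0.112).

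Of 17 tested genes that process histone transcripts, none was called on the groups alone and 3 fell with the block, near the 12.7% of all genes that did, with a median log2 fold change of -0.09. On the groups alone, unadjusted p was under 0.05 for 2 of the 17, where it was for 28.5% of all genes. These were Cstf2, which was lower in DSS, and Sympk, which was higher. Sympk had a log2 fold change of 0.22 (edgeR adjusted p = 0.0906, or 0.0554 with the block). The 3 that fell with the block were Cstf2, Casp8ap2 and Ncbp2, which act in cleavage of the transcript end, in the histone locus body and in the cap binding complex. Slbp had 16.6, 15.5 and 16.6 CPM in DSS, against 20.7, 14.4 and 17.3 CPM in control, with overlapping groups and a log2 fold change of -0.11 ± 0.14 (SE, edgeR adjusted p = 0.661). Npat, the activator of histone transcription in the histone locus body, had a log2 fold change of 0.08 ± 0.12 (SE, edgeR adjusted p = 0.716). The U7 RNA gene Rnu7 had at most 0.513 CPM and was not tested.

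Among 25 histone chaperones and assembly factors 1 rose and none fell on the groups alone, and 1 rose and 7 fell with the block, where 12.3% of all genes rose and 12.7% fell, with a median log2 fold change of -0.12. Nap1l1, a carrier of H2A and H2B, rose, with 174, 194 and 198 CPM in DSS, against 145, 148 and 156 CPM in control, and no overlap (log2 fold change 0.33 ± 0.07, SE, edgeR adjusted p = 0.026). Most fits without 1 library or 1 mouse lost this call, with adjusted p = 0.0628 to 0.225 in those, while it held with the block. Asf1b and Chaf1a, which hand new H3 and H4 to replicated DNA, had log2 fold changes of -0.78 and -0.57 and fell with the block only (adjusted p = 0.00992 and 0.00614). Hjurp, the chaperone of Cenpa, had 151, 108 and 102 CPM in DSS, against 178, 186 and 162 CPM in control, with an edgeR adjusted p of 0.053 on the groups alone and 0.00754 with the block.

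Many genes of the cell cycle fell with the block, as the replication-dependent histones did. Of 40 S phase genes, Slbp among them, 1 fell and none rose on the groups alone, and 22 fell with the block, where 12.7% of all genes did, with a median log2 fold change of -0.39. The 1 was Ccne1, cyclin E1, with 8.27, 8.12 and 7.85 CPM in DSS, against 13.6, 12.0 and 13.1 CPM in control (log2 fold change -0.68 ± 0.10, SE, edgeR adjusted p = 0.00541). Pcna, the sliding clamp of DNA polymerases, was not called in either fit (log2 fold change -0.21, edgeR adjusted p = 0.448, or 0.0969 with the block). Of 20 genes of G2 and M phase, 6 fell on the groups alone and all 20 fell with the block, where 5.91% and 12.7% of all genes fell. Their median log2 fold change was -0.84. Ccnb2, cyclin B2, had 16.7, 11.5 and 11.6 CPM in DSS, against 29.4, 27.8 and 24.7 CPM in control (log2 fold change -1.04 ± 0.16, SE, edgeR adjusted p = 0.00653). Without mouse 1717 or mouse 1718 the edgeR adjusted p on the groups alone was 0.0602 or 0.068 for Ccne1 and 0.0912 or 0.055 for Ccnb2. Mki67, the proliferation marker Ki-67, had 227, 114 and 93.7 CPM in DSS, against 342, 242 and 192 CPM in control, and fell with the block (log2 fold change -0.90, edgeR adjusted p = 0.000842).

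Summed, the S phase genes had 766, 495 and 543 CPM in DSS, against 964, 703 and 669.6 CPM in control, and the G2 and M phase genes had 979.8, 527 and 492 CPM in DSS, against 1415, 1108 and 870.3 CPM in control. In both sums the DSS library was lower in each mouse and mouse 1716 was the highest in each medium, as in the replication-dependent histone sum. The log2 difference was -0.38 ± 0.11 for the S phase genes and -0.81 ± 0.27 for the G2 and M phase genes, next to -0.33 ± 0.18 for the replication-dependent histones (SD, n = 3 mice each). The ratio of the replication-dependent histone sum to the S phase sum was 1.99, 1.86 and 1.501 in DSS, against 1.73, 1.84 and 1.57 in control. Its mean log2 difference of 0.05 ± 0.14 (SD, n = 3 mice) lay within the spread between mice.

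**Figure D4:**
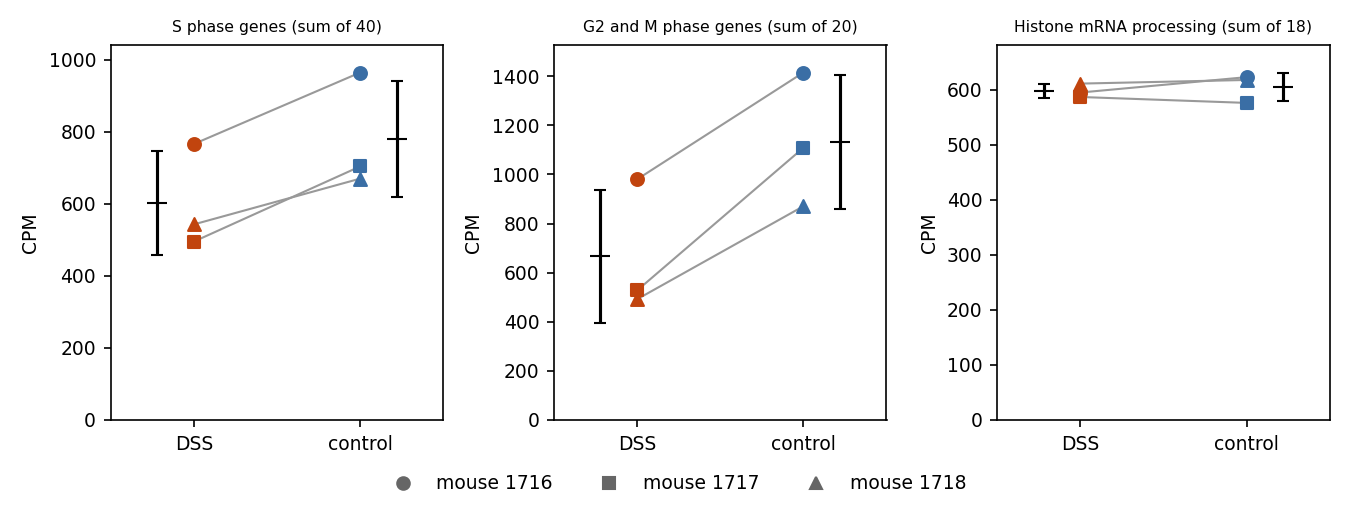
Summed CPM of S phase genes, G2 and M phase genes and histone mRNA processing genes in DSS and control libraries; symbols are mice, grey lines join the cultures of a mouse, and black bars are the mean ± SD over 3 mice. Mouse 1716 was highest in each medium in both cell cycle panels, and the processing genes stayed between 576 and 623 CPM in all libraries.

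Other RNAs without a poly(A) tail served as a comparison for the state of the libraries. Of 8 tested, none was called in either fit, where 13.3% of all genes were on the groups alone and 25.0% with the block. None had an unadjusted p under 0.05, where 5672 of 19869 genes did on the groups alone and 7359 with the block. At these shares, 8 genes without a call say little. The median log2 fold change was 0.04. Rn7s1 and Rn7s2 had identical estimates. The lowest was Rny3 at -0.64 (edgeR adjusted p = 0.324), with a mean of 0.87 CPM in DSS and 1.35 CPM in control. Rn7sk, the RNA that holds back elongation of transcription, had 999, 899 and 766 CPM in DSS, against 864, 808 and 902 CPM in control (log2 fold change 0.05, edgeR adjusted p = 0.815). Malat1, a nuclear RNA with a triple-helix end, had a log2 fold change of 0.18 (edgeR adjusted p = 0.374). The 28S ribosomal entry Rn28s1, what depletion had left behind, had 59838, 65266 and 58918 CPM in DSS, against 59977, 51478 and 60668 CPM in control, with a log2 fold change of 0.10 (edgeR adjusted p = 0.756).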

How the data were processed

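Per the labels' protocols, total RNA went through depletion of ribosomal RNA into directional libraries. The authors deposited estimated counts per transcript, credited to kallisto in the submitters' processing notes, which name GRCm38 and mm10. Which kallisto version and settings were used is not stated in the labels or files. Estimated counts were summed by gene symbol and rounded, then kept where filterByExpr of edgeR found enough counts, and scaled by TMM. That filter asks for about 10 counts, scaled by depth, in as many libraries as the smaller group holds (3 with all libraries). It also asks for 15 counts in total. DSS was compared with control by edgeR's quasi-likelihood test on the groups alone, adjusted after Benjamini and Hochberg over all 19869 genes, with calls at 0.05. Class sums were taken before rounding and have no test. Estimated counts divide reads among near-identical genes by likelihood, so single copies are uncertain.

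The same 3 mice gave both groups. Across genes, deviations from the group means correlated with r = 0.352, 0.212 and 0.463 within mice and -0.360 to 0.0222 between mice, so a fit with the mouse as a block is given beside results whose calls it changes. Stem-loops were searched in GENCODE vM21 transcripts and start regions in RefSeq. Libraries of a group differed beyond counting noise (chi-square per degree of freedom 9.51 to 21.7). The named genes are the 3 most abundant of each class, called members, up to 4 genes of each pathway list by smallest p and 6 fixed ones. Other genes, such as H3c2, H2bc18, H4c2, H2ac11 and H1f1, were named after their values were seen. The members and lists were chosen with earlier results of these data known. One list of cell type markers is not reported here. Scripts ran in Python 3.11.15 with matplotlib 3.10.9, numpy 2.4.6 and pandas 2.3.3, and in R 4.3.3 with DESeq2 1.42.0, limma 3.58.1 and edgeR 4.0.16.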

Additional observations from a re-analysis of the deposited data

How the results depend on the processing

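The number of genes called among all genes was 2639 on the groups alone and 4965 with the replicate block by mouse, and leaving out replicates gave 649 to 2418. Combined with the block, it was 4679, 3687 and 2779 without mice 1716, 1717 and 1718, 3039 in DESeq2, 5021 in limma-voom, 4979 with DESeq2 size factors and 4842 with library totals. Of replication-dependent genes, 0 were called on the groups alone, 36 with the replicate block, 1 with DESeq2 size factors and 4 in DESeq2, and leaving out replicates gave 0 to 24. Combined with the block, it was 44, 25 and 16 without mice 1716, 1717 and 1718, 27 in DESeq2, 34 in limma-voom, 37 with DESeq2 size factors and 32 with library totals. H3c14 and H2ac19, whose reads are shared with close copies, were called higher in some fits that leave out libraries. The cause of these changes was not tested, but fits that leave out libraries have fewer samples. Of variant genes, 2 were called on the groups alone and 0 to 3 when replicates were left out, and 4 with the block without mouse 1716. Both class sums and their ratio kept their direction and stayed within 1 SD under each alternative run. Leaving out 1 of 3 mice cannot move a mean by more than this SD, so those runs could not fail. For the ratio the SD was larger than the mean difference, so staying within it says little. Sign changes were seen for genes that were not called on the groups alone, among them H2ac23, which fell with the block (edgeR adjusted p = 0.0351) and was 0.067 without the control library of mouse 1716. When replicates were left out, log2 fold changes ran over -0.17 to 0.14 for H1f2, -0.43 to 0.023 for H1f4, -0.50 to 0.050 for H1f3, -0.70 to 0.067 for H2ac23, -0.087 to 0.31 for H2bc23 and H2bc24, -0.42 to 0.038 for H4c18, -0.30 to 0.13 for H4c8, -0.28 to 0.0032 for H1f10, -0.23 to 0.032 for Slbp, -0.011 to 0.20 for Npat, -0.043 to 0.17 for Rn7sk, -0.14 to 0.16 for Rmrp, -0.092 to 0.13 for Rpph1, -0.20 to 0.19 for Terc, -0.13 to 0.31 for Rn7s1 and Rn7s2 and -0.024 to 0.16 for Rn28s1. H1f2 was 0.0046 with library totals, and Terc was -0.0038 in DESeq2. With the block, Rmrp was -0.00045 and Terc -0.0028 in DESeq2, and Terc -0.0062 with DESeq2 size factors. With the block and without mouse 1716, Slbp was 0.021, Rn7sk -0.041, Rmrp -0.15, Terc -0.018 and Rn7s1 and Rn7s2 -0.078. With the block and without mouse 1717, H4c8 was 0.075, Rn7sk -0.014, Rpph1 -0.063, Terc -0.072 and Rn28s1 -0.024, and H1f2 was 0.0060 without mouse 1718. The alternatives that combine the block with another choice were chosen after seeing the data.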
